A study of Mus musculus with 23 samples.

Results

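The comparison described here set A10-FMT beside Con-FMT in the first of the series' sets of libraries, called set 1. It covers 6 of the 23 libraries analysed, 3 from mice given A10-FMT and 3 from mice given Con-FMT, chosen by their labels alone. FMT stands for fecal microbiota transplantation, here of contents of the donor small intestine. All recipients, Con-FMT included, were ICR mice, an outbred stock, males that were given busulfan, an alkylating anticancer drug that damages the intestinal epithelium, at 40 mg/kg and 3 weeks of age. By the study's methods they were gavaged daily for 1 week, from the next day, with the contents of donor small intestine. They were collected at 5 weeks of age. No label ties this schedule or these ages to the libraries of set 1. Con-FMT donors had been dosed with water, the vehicle, and A10-FMT donors with alginate oligosaccharides (AOS) at 10 mg/kg in that vehicle. Contents of the donors of a group were pooled, so the recipients of a group shared donor material, and the preparation and the group cannot be told apart. The tissue is given as intestine, small intestine by the protocol, with no region named, and no label says which libraries were prepared or sequenced together.

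The epithelium of the small intestine renews itself from crypts, where stem cells and rapidly dividing progenitors lie beside Paneth cells that release antimicrobial peptides. Daughter cells leave the cell cycle as they move onto the villus and become absorptive enterocytes, goblet cells, enteroendocrine cells or tuft cells. Enterocytes carry a brush border of microvilli with digestive enzymes and nutrient transporters, and they make chylomicrons from absorbed fat. Genes are therefore grouped below as absorptive genes of the villus, crypt genes and genes of defence and structure.

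Levels are given as FPKM, fragments scaled to transcript length and to the number of mapped fragments, and differences as log2(FPKM + 1) of A10-FMT minus Con-FMT, a scale that understates the change of genes near 1 FPKM. A gene is called higher or lower, or said to have risen or fallen, where its adjusted p in limma is under 0.05, and the errors given are standard errors. Since no label says that replicates are separate animals, p-values measure the spread between these libraries. For the genes given with their values below, a call that ends when 1 library is left out, or under another scaling of the values, is named in the same paragraph. The 6 libraries were alike in breadth: 11187 to 11353 entries reached 1 FPKM in each, and the Pearson correlation of log2 values was 0.982 to 0.988 within groups and 0.974 to 0.982 between them. The files hold no counts, so depth is unknown. The depth relative to the median library, read from the spacing of the lowest values, was 0.977 to 1.03 with Con-FMT and 1.04 to 1.10 with A10-FMT. These ranges do not overlap, and the part of depth in the results was not tested.

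The libraries held RNA of epithelium. Epcam, a surface protein of epithelial cells, was at 875, 949 and 945 FPKM with Con-FMT and 961, 944 and 963 FPKM with A10-FMT, and villin (Vil1), Fabp2, Muc2, Lyz1 and Chga, which mark the brush border, enterocytes, goblet, Paneth and enteroendocrine cells, were all measured well above 1 FPKM. Of the markers of other tissue layers, these defining ones were at or near 0 in all 6 libraries: smooth muscle actin Acta2 was at most 0.09 FPKM, the fibroblast collagen Col1a1 at most 0.14, the endothelial Pecam1 at most 0.14, the B cell gene Cd79a at most 0.08, and the adipocyte hormone gene Adipoq at 0. Other members of these lists were not near 0, and are named here after their values were seen. The smooth muscle list summed to 264 to 281 FPKM, mostly Tpm1 and Mylk, the fibroblast list to 34.0 to 51.0 FPKM, mostly Fbln1, and the adipocyte list to 12.1 to 31.7 FPKM, nearly all of it Cidec. The myeloid list summed to 53.7 to 79.3 FPKM, mostly Cd14, while the macrophage markers Adgre1 and Csf1r were at most 0.05 and 0.07 FPKM. T cell genes were present. Summed over that list they came to 79.5 to 189 FPKM with Con-FMT and 89.2 to 170 FPKM with A10-FMT, and 0 of its 12 tested members were called. The erythroid list summed to 1.21 to 2.49 FPKM with Con-FMT and 2.52 to 19.4 FPKM with A10-FMT, the high end being replicate 3, and 0 of its 2 tested members were called.

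Of 11349 entries with a mean of at least 1 FPKM, 3474 were called (30.6%), of which 971 (8.56%) were higher and 2503 (22.1%) lower with A10-FMT. Most of the calls were small. The median log2 difference was 0.32 among the genes called higher and -0.27 among those called lower, against -0.08 over all genes tested, and 50 called genes, 39 higher and 11 lower, differed by at least 1 on the log2 scale. In 931 of the genes called higher and 2395 of those called lower the 3 values of one group all lay outside those of the other, which 12.3% and 29.8% of all tested entries did in the respective direction. A ratio of group means of at least 2, with 1 FPKM added to both means, was reached by 64 genes upward (0.564%) and 47 downward (0.414%), of which 44 and 22 had no overlap. The split between higher and lower depends on the scaling. With trimmed-mean scaling of the FPKM values 1537 genes were higher and 1363 lower, and with quantile normalization 1015 were higher and 1478 lower. Con-FMT replicate 1 weighed most on the count: without it 2313 genes were called. In tissue RNA of this kind, fewer cells of a type and less RNA per cell cannot be told apart.

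**Figure D1:**
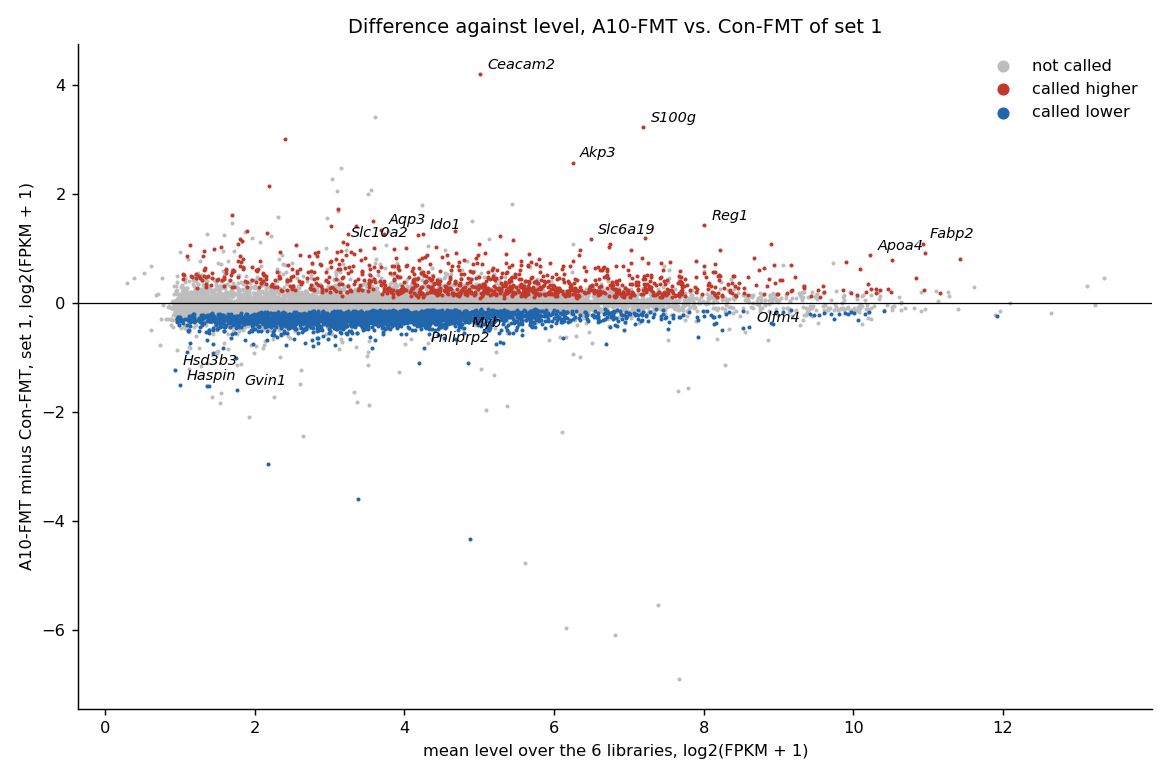
Difference between A10-FMT and Con-FMT of set 1 for each of the 11349 entries tested (vertical axis, log2(FPKM + 1)) against the mean level over the 6 libraries (horizontal axis, log2(FPKM + 1)). Red and blue points are the 971 genes called higher and the 2503 called lower, grey points those not called. Genes called lower crowd just under 0, and 39 called genes lie 1 or more above 0 against 11 that lie 1 or more below it.

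Second only to Ceacam2 among called genes with a symbol was the rise of S100g, which encodes calbindin-D9k, the calcium-binding protein that carries calcium through the enterocyte. S100g was at 13.9, 41.1 and 31.4 FPKM with Con-FMT and 218, 360.02 and 209 FPKM with A10-FMT. Every A10-FMT library held more than the highest Con-FMT level, a log2 difference of 3.23 ± 0.43 (SE, adjusted p = 0.000428), with a ratio of group means of 9.11. Akp3, an intestinal alkaline phosphatase of the brush border, was at 9.44, 23.6 and 33.2 FPKM with Con-FMT and 110.02, 189 and 86.6 FPKM with A10-FMT. Its groups did not overlap either, with a log2 difference of 2.57 ± 0.49 (SE, adjusted p = 0.00214). Also among the 12 genes with the largest rise were Otop3, which encodes a proton channel (1.73 ± 0.22, adjusted p = 0.00036), Areg, which encodes the epidermal growth factor receptor ligand amphiregulin (1.41 ± 0.24, adjusted p = 0.00113), Aqp3, an aquaglyceroporin (1.34 ± 0.25, adjusted p = 0.00199), and Ido1, which starts the breakdown of tryptophan to kynurenine (1.26 ± 0.16, adjusted p = 0.000388).

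Ceacam2, a cell adhesion gene, had the largest difference of the called genes with a symbol but varied within the group. It was at 0.92, 0.94 and 0.99 FPKM with Con-FMT and 83.8, 4.53 and 96.2 FPKM with A10-FMT. A10-FMT replicate 2 lay far below the other A10-FMT libraries, a log2 difference of 4.20 ± 1.44 (SE, adjusted p = 0.0396). Its near-identical neighbour Ceacam1, outside the rule for named genes and looked up afterwards, was at 333, 406 and 381 FPKM with Con-FMT and 254, 313 and 242 FPKM with A10-FMT, and reads shared by the pair may have been split between them in either way, so the value of Ceacam2 is uncertain. In set 2 Ceacam2 was at 148, 5.44 and 1.13 FPKM with Con-FMT and 1.07, 73.3 and 20.6 FPKM with A10-FMT, with high and low libraries in both groups. Ceacam2 was not called under 8 of 17 alternatives, among them without Con-FMT replicate 1, 2 or 3 or A10-FMT replicate 1 or 3 (adjusted p up to 0.138).

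Fewer genes fell by much. Gvin1, an interferon-inducible GTPase gene, was at 4.27, 3.47 and 3.93 FPKM with Con-FMT and 2.59, 0.16 and 0 FPKM with A10-FMT, a log2 difference of -1.60 ± 0.43 (SE, adjusted p = 0.0122). Haspin, a histone kinase of mitosis, was at 1.89, 1.98 and 1.99 FPKM with Con-FMT and 0, 0.13 and 0 FPKM with A10-FMT, and Hsd3b3, a steroid dehydrogenase, at 0.56, 1.61 and 3.07 FPKM with Con-FMT and 0.09, 0.16 and 0 FPKM with A10-FMT. Both were low throughout, with log2 differences of -1.50 ± 0.37, adjusted p = 0.00773 for Haspin and -1.24 ± 0.40, adjusted p = 0.0299 for Hsd3b3. Gvin1 was not called with the 6 libraries alone or without A10-FMT replicate 2 or 3 (adjusted p up to 0.0614). Hsd3b3 was not called under 7 of 13 alternatives, among them without Con-FMT replicate 2 or A10-FMT replicate 1, 2 or 3 (adjusted p up to 0.0816). The genes with the smallest adjusted p among those that fell were Myb, Sin3a, Ephb4, Ncapd2, Incenp and Pabpc1. Myb, a transcription factor of crypt progenitors, was at 33.4, 31.4 and 31.4 FPKM with Con-FMT and 22.1, 21.6 and 21.4 FPKM with A10-FMT. The 3 values of each group were close together and the groups were well apart, a log2 difference of -0.54 ± 0.06 (SE, adjusted p = 0.000304).

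**Figure D2:**
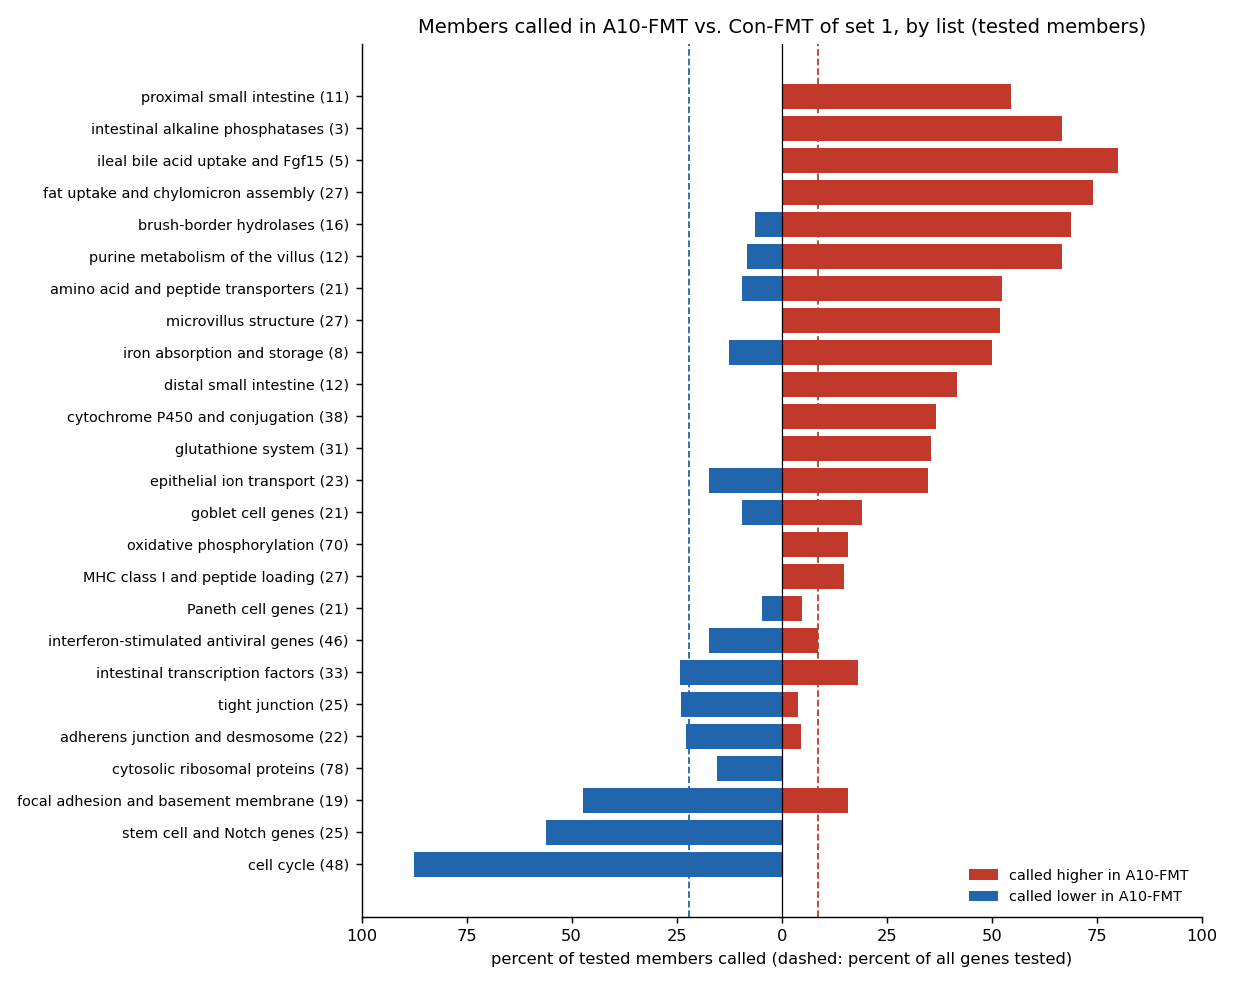
Percent of the tested members of 25 gene lists that were called higher (red, right) or lower (blue, left) with A10-FMT in set 1, with the number of tested members after each name. Dashed lines mark 8.56% and 22.1%, the percent of all genes tested that were called higher and lower. Lists of absorption lie to the right of the red line, and the cell cycle, stem cell and Notch lists reach far to the left of the blue line.

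RNA of most tested brush-border hydrolases was higher with A10-FMT. Of 16 tested hydrolases, 11 rose and 1 fell, with a median log2 difference of 0.53, where 8.56% of all genes rose. Among the hydrolases, Anpep, the abundant aminopeptidase N, was at 1519.9, 1497 and 1587 FPKM with Con-FMT and 2076, 1927 and 2363 FPKM with A10-FMT, with no overlap and a log2 difference of 0.46 ± 0.08 (SE, adjusted p = 0.00155). Tmprss15, which encodes the enteropeptidase that activates trypsinogen, was low but rose most in this list, 0.61, 1.23 and 1.94 FPKM with Con-FMT and 3.53, 4.14 and 3.90 FPKM with A10-FMT, a log2 difference of 1.14 ± 0.22 (SE, adjusted p = 0.00227). Further peptidases that rose were Mme (0.66 ± 0.14, adjusted p = 0.00372), Xpnpep2 (0.61 ± 0.14, adjusted p = 0.00556), Mep1b (0.57 ± 0.08, adjusted p = 0.000468) and Enpep (0.32 ± 0.09, adjusted p = 0.0136), beside the glutathione-cleaving Ggt1 (0.75 ± 0.11, adjusted p = 0.000658) and the trehalose-splitting Treh (0.66 ± 0.15, adjusted p = 0.00648). Anpep was not called with quantile normalization (adjusted p = 0.105). Enpep was not called under 6 of 17 alternatives, among them without Con-FMT replicate 2 or A10-FMT replicate 1 or 3 (adjusted p up to 0.125).

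Among the disaccharidases, Treh rose, Mgam fell and sucrase-isomaltase and lactase did not pass the test. Mgam, maltase-glucoamylase, fell: it was at 169, 140.4 and 170.4 FPKM with Con-FMT and 132, 119.5 and 131 FPKM with A10-FMT, every A10-FMT value under every Con-FMT value, a log2 difference of -0.32 ± 0.09 (SE, adjusted p = 0.0162). Sucrase-isomaltase (Sis) was at 242, 182 and 268 FPKM with Con-FMT and 215, 194 and 206 FPKM with A10-FMT and lactase (Lct) at 67.8, 88.8 and 89.6 FPKM with Con-FMT and 85.8, 90.1 and 123 FPKM with A10-FMT. The groups of both genes overlapped, and neither passed the test, with log2 differences of -0.15 and 0.27 and adjusted p of 0.581 and 0.376. These last 2 genes lie outside the rule by which genes were named and are given because they are the classical disaccharidases, with their values known. The glucose transporter Slc5a1 (SGLT1) was at 177, 157 and 167 FPKM with Con-FMT and 166, 171 and 178 FPKM with A10-FMT, also overlapping, with a log2 difference of 0.04 and adjusted p = 0.778. Of 12 tested genes of sugar transport and fructose metabolism 2 rose and 2 fell (16.7% each), beside 8.56% and 22.1% of all genes. With 1 library left out the count that rose was 0 or 1. Among those that fell was the thioredoxin-binding Txnip (-0.65 ± 0.15, adjusted p = 0.00534). Mgam was not called under 6 of 17 alternatives, among them without Con-FMT replicate 1 or 3 or A10-FMT replicate 2 (adjusted p up to 0.142).

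Alpi, the main intestinal alkaline phosphatase, which detoxifies bacterial lipopolysaccharide, rose along with Akp3. Alpi was at 270.4, 268 and 345 FPKM with Con-FMT and 470.2, 549 and 533 FPKM with A10-FMT, a log2 difference of 0.82 ± 0.13 (SE, adjusted p = 0.000822). The phosphatase genes are close copies of each other, and the part of shared reads was not tested. In the calcium list, 2 of 5 tested members rose and 1 fell. Besides S100g, the basolateral calcium pump gene Atp2b1 rose, at 16.8, 16.8 and 18.9 FPKM with Con-FMT and 24.7, 21.7 and 21.7 FPKM with A10-FMT (0.36 ± 0.08, adjusted p = 0.00562), and the claudin gene Cldn12 fell (-0.24 ± 0.06, adjusted p = 0.00847). The vitamin D receptor gene Vdr, whose protein regulates S100g, was at 87.4, 80.7 and 98.01 FPKM with Con-FMT and 87.1, 78.5 and 86.96 FPKM with A10-FMT, with overlap and adjusted p = 0.505. The apical calcium channel gene Trpv6 was under the mean of 1 FPKM needed for the test. Its values, 0.03, 0.17 and 0.15 FPKM with Con-FMT and 0.91, 1.42 and 1.04 FPKM with A10-FMT, were chosen for mention after they were seen. Cldn12 was not called with quantile normalization or with trimmed-mean scaling or with the 6 libraries alone (adjusted p up to 0.0817).

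Fat uptake and chylomicron assembly was the most uniform of the longer absorptive lists: 20 of 27 tested members rose (74.1%) and 0 fell, with a median log2 difference of 0.44. Over all genes 8.56% rose and 22.1% fell. Fabp2 and Fabp1 encode fatty acid binding proteins, which carry fat inside the enterocyte. Fabp2 was at 1214, 1224 and 1296 FPKM with Con-FMT and 2508, 2446 and 2987 FPKM with A10-FMT. The ratio of group means was 2.13 with no overlap, a log2 difference of 1.08 ± 0.11 (SE, adjusted p = 0.000304). Fabp1 was at 1026, 1077 and 1082 FPKM with Con-FMT and 1575, 2245 and 1761 FPKM with A10-FMT, a log2 difference of 0.79 ± 0.16 (SE, adjusted p = 0.00293). The apolipoproteins of the chylomicron were higher as well: Apoa4 was at 736, 853 and 942 FPKM with Con-FMT and 1298, 1604 and 1743 FPKM with A10-FMT, a log2 difference of 0.87 ± 0.19 (SE, adjusted p = 0.00372), Apoa1 rose by 0.80 ± 0.20 (adjusted p = 0.00851), and Apoc2, the cofactor of lipoprotein lipase, by 1.08 ± 0.22 (adjusted p = 0.00288). Sar1b, the GTPase that chylomicrons need to leave the endoplasmic reticulum, was at 125, 121 and 122 FPKM with Con-FMT and 162, 171 and 169 FPKM with A10-FMT, with tight groups that did not overlap, a log2 difference of 0.44 ± 0.05 (SE, adjusted p = 0.000304). Scarb1, a lipoprotein receptor, rose from a low level (0.91 ± 0.24, adjusted p = 0.0115). Rbp2, which carries vitamin A inside the cell, was at 1344, 1368 and 1392 FPKM with Con-FMT and 2373, 2637 and 2798 FPKM with A10-FMT, a log2 difference of 0.92 ± 0.13 (SE, adjusted p = 0.000594), but only Rbp2 and Aldh1a1 of 11 tested retinoid genes rose (18.2%). Apoa1 was not called with quantile normalization (adjusted p = 0.0538). Scarb1 was not called without A10-FMT replicate 2 (adjusted p = 0.0533). Aldh1a1 was not called under 10 of 17 alternatives, among them without Con-FMT replicate 2 or 3 or A10-FMT replicate 1 or 3 (adjusted p up to 0.148).

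The 250 bases before the start of Fabp2 and Fabp1, taken from RefSeq on GRCm38.p6, are shown because both genes rose and are abundant members of the fat uptake list. The Fabp2 stretch is at chr3:122894822-122895071 (+ strand) and the Fabp1 stretch at chr6:71199629-71199878 (+ strand). Capitals mark matches, on either strand, to the CCAAT box (CCAAT), the cell cycle homology region (TTTGAA) or a CDX site (TTTATNG), none of which overlap here.
Fabp2: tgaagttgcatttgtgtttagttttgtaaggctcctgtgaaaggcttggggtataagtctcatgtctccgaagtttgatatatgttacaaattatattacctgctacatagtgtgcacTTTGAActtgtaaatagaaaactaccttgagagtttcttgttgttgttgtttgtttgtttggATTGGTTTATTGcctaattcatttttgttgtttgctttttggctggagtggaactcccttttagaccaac
Fabp1: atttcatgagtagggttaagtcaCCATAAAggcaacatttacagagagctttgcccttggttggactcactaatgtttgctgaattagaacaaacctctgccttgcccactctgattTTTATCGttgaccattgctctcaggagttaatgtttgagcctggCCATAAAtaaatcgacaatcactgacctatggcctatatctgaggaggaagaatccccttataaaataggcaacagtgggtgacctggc
In Fabp2 these are 1 CCAAT box, 1 TTTGAA and 1 CDX site next to the CCAAT box, and in Fabp1 there are 3 CDX sites. Promoters were found for 8604 of the tested genes, of which 559 (6.50%) held a CDX site, against 6 of 20 (30.0%) in the fat uptake list and 0 of 36 in the cell cycle list. Among called members only, the site stood in 3 of 13 (23.1%) of the fat genes that rose and in 0 of 32 of the cell cycle genes that fell, beside 8.01% of all genes called higher. An HNF4 site (CAAAGTCCA) was present in 0.395% of all promoters and in 0 of these 20. Such matches are letters in a window and no measure of binding.

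Transporters of amino acids and peptides were next. Of 21 tested transporters 11 rose (52.4%) and 2 fell (9.52%), beside 8.56% and 22.1% of all genes. Slc6a19, the main apical transporter of neutral amino acids, was at 53.4, 53.2 and 55.3 FPKM with Con-FMT and 112, 107 and 152 FPKM with A10-FMT. The groups lay far apart, a log2 difference of 1.16 ± 0.14 (SE, adjusted p = 0.000304). The peptide transporter Slc15a1 (PEPT1) was at 23.7, 21.8 and 22.4 FPKM with Con-FMT and 38.4, 37.1 and 39.7 FPKM with A10-FMT, a log2 difference of 0.74 ± 0.11 (SE, adjusted p = 0.000688). Slc7a7, the basolateral exporter of cationic amino acids, had the smallest adjusted p of the named genes: it was at 72.6, 71.8 and 71.8 FPKM with Con-FMT and 109.8, 107 and 121 FPKM with A10-FMT, a log2 difference of 0.64 ± 0.06 (SE, adjusted p = 0.0002). Slc7a9, the apical exchanger of cystine and basic amino acids, and Slc3a2, the heavy chain of several exchangers, also rose, the first at 0.34 (adjusted p = 0.00427) and the other at 0.34 (adjusted p = 0.00285). Of the members that fell, the cationic transporter Slc7a1 was at 24.03, 23.7 and 21.6 FPKM with Con-FMT and 17.9, 16.6 and 14.8 FPKM with A10-FMT, a log2 difference of -0.47 ± 0.07 (SE, adjusted p = 0.000588), and Slc38a1 fell by 0.26 on the log2 scale (adjusted p = 0.0344). Slc38a1 was not called under 13 of 17 alternatives, among them without Con-FMT replicate 1, 2 or 3 or A10-FMT replicate 2 or 3 (adjusted p up to 0.153).

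Genes typical of the ileum and genes typical of the upper intestine were both among those that rose. For ileal bile acid uptake 4 of 5 tested members rose (80.0%) and 0 fell, beside 8.56% and 22.1% of all genes. Without Con-FMT replicate 1 or 2 or A10-FMT replicate 1 or 3 the count that rose was 2. Slc10a2, the apical bile acid transporter, was at 3.96, 4.20 and 5.62 FPKM with Con-FMT and 15.1, 6.56 and 13.2 FPKM with A10-FMT, a log2 difference of 1.12 ± 0.33 (SE, adjusted p = 0.0191). The lowest A10-FMT value was just above the highest with Con-FMT. Both subunits of the basolateral bile acid exporter rose, Slc51a (0.49 ± 0.11, adjusted p = 0.00394) and Slc51b (0.82 ± 0.16, adjusted p = 0.00257), as did Nr1h4, which encodes the bile acid receptor FXR (0.24 ± 0.08, adjusted p = 0.034). Fabp6, the ileal bile acid binding protein, was at 593, 596 and 717 FPKM with Con-FMT and 1215, 923 and 1055 FPKM with A10-FMT, without overlap, but missed the threshold with adjusted p = 0.0516. In the list of proximal genes 6 of 11 rose (54.5%) and 0 fell, with a median log2 difference of 0.79, though Apoa4, Fabp1, Gsta1 and Rbp2 among them also stand in other lists here. Pdx1, a transcription factor of duodenum and pancreas, was at 5.52, 4.96 and 4.83 FPKM with Con-FMT and 10.8, 12.2 and 9.35 FPKM with A10-FMT, a log2 difference of 0.94 ± 0.16 (SE, adjusted p = 0.00137). Gata4, which specifies the proximal intestine, was at 60.6, 50.8 and 50.6 FPKM with Con-FMT and 45.9, 50.7 and 50.4 FPKM with A10-FMT, overlapping (adjusted p = 0.191). In the list of distal genes 5 of 12 rose (41.7%) and 0 fell, 3 of them without Con-FMT replicate 1 or A10-FMT replicate 1, while the abundant Lypd8 was at 4684, 4265 and 4116 FPKM with Con-FMT and 4276, 4551 and 4255 FPKM with A10-FMT with overlap (adjusted p = 0.981). Slc10a2 was not called without Con-FMT replicate 1 or 2 or A10-FMT replicate 1 or 3 (adjusted p up to 0.0712). Nr1h4 was not called under 10 of 17 alternatives, among them without Con-FMT replicate 1 or 2 or A10-FMT replicate 1 or 3 (adjusted p up to 0.132).

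More iron and purine genes rose than fell. Of 8 tested iron genes 4 rose and 1 fell. Slc46a1, the carrier of folate and heme, was at 16.97, 20.4 and 27.8 FPKM with Con-FMT and 33.7, 43.1 and 39.4 FPKM with A10-FMT, a log2 difference of 0.83 ± 0.14 (SE, adjusted p = 0.00111), and the ferroxidase hephaestin (Heph), the ferritin light chain Ftl1 and the apical iron importer Slc11a2 rose by 0.34, 0.26 and 0.23. The transferrin receptor Tfrc, which supplies iron to dividing cells, was at 61.9, 57.2 and 57.7 FPKM with Con-FMT and 48.3, 45.3 and 48.3 FPKM with A10-FMT and fell (-0.31 ± 0.08, adjusted p = 0.0131). Of 12 tested purine genes 8 rose (66.7%) and 1 fell (8.33%), beside those same shares over all genes, and 6 to 9 rose under the alternatives. Adenosine deaminase (Ada), a villus enzyme of purine breakdown, was at 13.8, 20.3 and 33.6 FPKM with Con-FMT and 32.02, 56.8 and 71.4 FPKM with A10-FMT. Here A10-FMT replicate 1 lay under Con-FMT replicate 3, so the groups overlapped despite a log2 difference of 1.22 ± 0.29 (SE, adjusted p = 0.00727). Guanine deaminase (Gda) was at 77.2, 80.8 and 86.1 FPKM with Con-FMT and 129, 117 and 132 FPKM with A10-FMT, with no overlap and a log2 difference of 0.62 ± 0.08 (SE, adjusted p = 0.000441), and xanthine dehydrogenase (Xdh) and purine nucleoside phosphorylase (Pnp) rose by 0.47 and 0.37. Tfrc was not called in the fit of all 23 libraries or without Con-FMT replicate 1 (adjusted p up to 0.151). Ftl1 was not called with the 6 libraries alone or with the 9 libraries of set 1 or after the GC and length adjustment (adjusted p up to 0.0605). Slc11a2 was not called under 7 of 17 alternatives, among them without Con-FMT replicate 1 or 2 or A10-FMT replicate 1 or 2 (adjusted p up to 0.108).

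Detoxification genes that were called were higher with A10-FMT. Of 31 tested genes of the glutathione system 11 rose and 0 fell, and of 38 genes of cytochrome P450 oxidation and conjugation 14 rose and 0 fell, beside 8.56% of all genes that rose. Without Con-FMT replicate 3 or A10-FMT replicate 3, 6 glutathione genes were higher, and without Con-FMT replicate 2 or A10-FMT replicate 2, 7 were. The P450 list had 9 higher without A10-FMT replicate 2 or 3. Gsta1, a glutathione S-transferase, was at 29.7, 18.6 and 31.8 FPKM with Con-FMT and 59.1, 63.4 and 54.5 FPKM with A10-FMT, a log2 difference of 1.15 ± 0.19 (SE, adjusted p = 0.000953). The Gsta genes are close copies, and Gsta2, which rose by 0.81 at a level under 5 FPKM, may share reads with Gsta1. Gsta4, which clears products of lipid peroxidation, rose by 0.75 ± 0.12 (adjusted p = 0.000775). The most abundant member, Gstp1, was at 1131, 1144 and 1079.6 FPKM with Con-FMT and 1161, 1124 and 1208 FPKM with A10-FMT, with overlap and adjusted p = 0.608. Among the P450 genes Cyp4f16, a fatty acid hydroxylase, was at 79.7, 95.9 and 85.7 FPKM with Con-FMT and 188, 132 and 198 FPKM with A10-FMT, a log2 difference of 0.96 ± 0.16 (SE, adjusted p = 0.00108), and the carboxylesterase Ces2c at 176, 156 and 196 FPKM with Con-FMT and 291, 321 and 285 FPKM with A10-FMT, a log2 difference of 0.76 ± 0.11 (SE, adjusted p = 0.000569). Taking out trends with GC content and transcript length left 7 glutathione genes higher and 1 lower, and 15 higher and 0 lower in the P450 list.

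The skeleton of the brush border came next. Of 27 tested genes of microvillus structure 14 rose (51.9%) and 0 fell, beside 8.56% and 22.1% of all genes. The median log2 difference, 0.18, was smaller than for enzymes and fat genes. Tmigd1, an adhesion protein of the brush border, was at 11.5, 12.2 and 17.2 FPKM with Con-FMT and 42.7, 26.6 and 37.8 FPKM with A10-FMT, a log2 difference of 1.32 ± 0.27 (SE, adjusted p = 0.00285). Pdzk1 and Slc9a3r1, scaffolds that hold transporters in the microvillus, rose by 0.89 and 0.50, the actin bundler Espn by 0.89 and the intermicrovillar cadherin Cdhr2 by 0.45. Vil1 was at 674, 673 and 715 FPKM with Con-FMT and 854, 798 and 914 FPKM with A10-FMT and Actb, beta-actin, at 1299.5, 1246 and 1301 FPKM with Con-FMT and 1509, 1523 and 1590.2 FPKM with A10-FMT. Neither gene overlapped between groups, with log2 differences of 0.31 (adjusted p = 0.00225) and 0.26 (adjusted p = 0.000815). The keratins Krt8 and Krt19 did not pass the test: Krt8 was at 2291, 2461 and 2366 FPKM with Con-FMT and 2590.2, 2500.4 and 2716 FPKM with A10-FMT (adjusted p = 0.0521) and Krt19 had a log2 difference of 0.03 (adjusted p = 0.703), while Krt20, a keratin of differentiated cells, rose by 0.47 ± 0.08 (adjusted p = 0.000877). Actb was not called with quantile normalization (adjusted p = 0.0538).

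**Figure D3:**
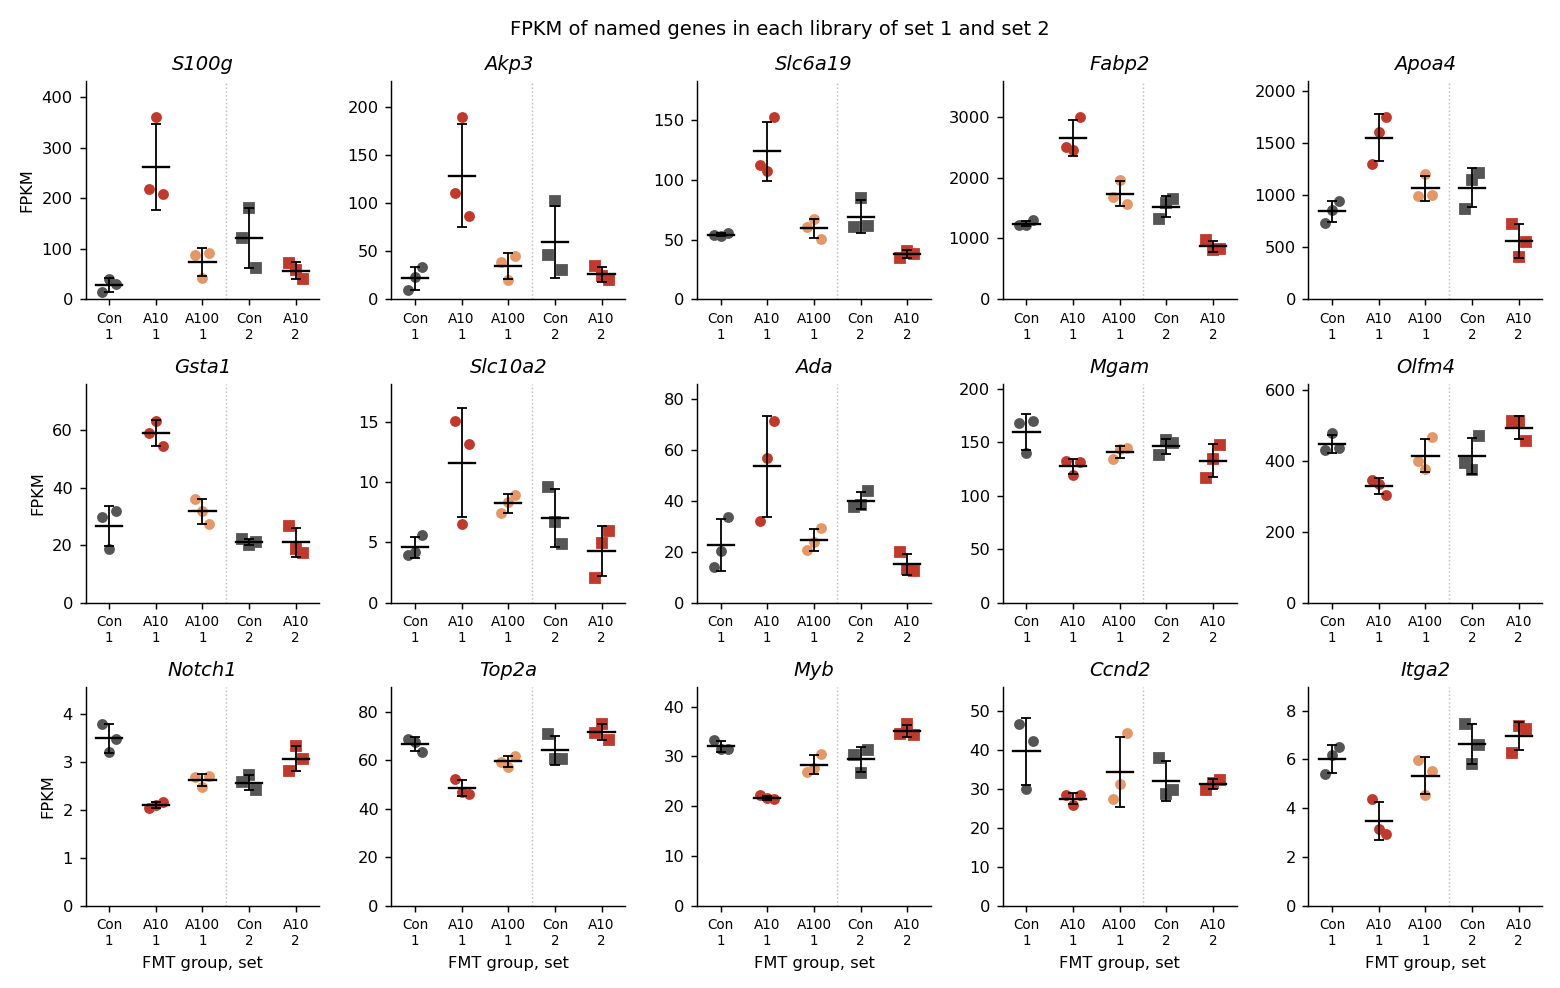
FPKM of 15 named genes in each library (points) with the group mean (bar) and SD (whiskers), for Con-FMT, A10-FMT and A100-FMT of set 1 (circles) and Con-FMT and A10-FMT of set 2 (squares), 3 libraries per group, axes from 0. In set 1 the A10-FMT values lie above Con-FMT for the genes from S100g to Ada, with overlap in Ada, and below it from Mgam to Itga2. In set 2 the difference of group means on the log2 scale has the other sign for 13 of the 15 genes, all but Mgam and Ccnd2.

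Genes of the dividing crypt were lower with A10-FMT. Of 48 tested cell cycle genes 42 fell and 0 rose, against 22.1% of all genes that fell, with a median log2 difference of -0.33. Top2a, the topoisomerase that untangles replicated chromosomes, was at 68.9, 67.7 and 63.5 FPKM with Con-FMT and 52.5, 47.2 and 46.2 FPKM with A10-FMT. The groups did not overlap, a log2 difference of -0.45 ± 0.06 (SE, adjusted p = 0.000564). The replicative helicase genes Mcm3 and Mcm6 were at 29.6, 28.7 and 26.2 FPKM with Con-FMT and 20.8, 21.4 and 20.3 FPKM with A10-FMT and at 51.6, 56.3 and 46.5 FPKM with Con-FMT and 36.6, 37.8 and 38.1 FPKM with A10-FMT. Both fell, by 0.42 and 0.44 on the log2 scale (adjusted p = 0.000815 and 0.00146). Uhrf1, which keeps DNA methylation through replication, was at 30.4, 32.2 and 28.2 FPKM with Con-FMT and 22.9, 22.6 and 20.3 FPKM with A10-FMT, a log2 difference of -0.45 ± 0.06 (SE, adjusted p = 0.000512), and Rrm1, a subunit of ribonucleotide reductase, fell by 0.46 (adjusted p = 0.0026). Smaller falls were seen in the abundant Pcna, the replication clamp, at 169.9, 157 and 154 FPKM with Con-FMT and 135, 139.6 and 136 FPKM with A10-FMT (-0.22 ± 0.05, adjusted p = 0.00738), and in the mitotic Ube2c (-0.18 ± 0.06, adjusted p = 0.0381). Hmgb2, a chromatin protein of dividing cells, was at 124, 105 and 132 FPKM with Con-FMT and 101.0, 97.1 and 72.8 FPKM with A10-FMT, without overlap, and missed the threshold (adjusted p = 0.0546). The count of cell cycle genes that fell was 27 with trimmed-mean scaling, 28 with the 6 libraries alone and 40 once GC content and length were adjusted for. Pcna was not called with trimmed-mean scaling (adjusted p = 0.0606). Ube2c was not called under 10 of 17 alternatives, among them without Con-FMT replicate 1, 2 or 3 or A10-FMT replicate 1 or 3 (adjusted p up to 0.251).

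The 250 bases before the starts of Top2a, Mcm3 and Uhrf1 are shown, from RefSeq on GRCm38.p6, since these replication genes fell clearly and their promoters hold the elements searched for. They lie at chr11:99024190-99024439 (- strand), chr1:20820313-20820562 (- strand) and chr17:56303087-56303336 (+ strand), each written along the strand of its gene. Capitals mark CCAAT boxes (CCAAT, or ATTGG where it lies on the other strand), the cell cycle homology region (TTTGAA or TTCAAA) and an E2F site (GCGGGAA or TTCCCGC).
Top2a: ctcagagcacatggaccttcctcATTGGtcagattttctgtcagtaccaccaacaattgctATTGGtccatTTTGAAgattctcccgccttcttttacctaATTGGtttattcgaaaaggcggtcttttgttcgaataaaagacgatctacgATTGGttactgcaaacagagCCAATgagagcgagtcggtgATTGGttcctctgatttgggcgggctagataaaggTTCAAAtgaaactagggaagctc
Mcm3: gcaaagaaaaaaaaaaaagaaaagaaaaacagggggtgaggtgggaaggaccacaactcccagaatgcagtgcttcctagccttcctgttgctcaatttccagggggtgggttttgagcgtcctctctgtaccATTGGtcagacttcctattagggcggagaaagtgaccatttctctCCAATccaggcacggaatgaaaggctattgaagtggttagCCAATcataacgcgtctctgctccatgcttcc
Uhrf1: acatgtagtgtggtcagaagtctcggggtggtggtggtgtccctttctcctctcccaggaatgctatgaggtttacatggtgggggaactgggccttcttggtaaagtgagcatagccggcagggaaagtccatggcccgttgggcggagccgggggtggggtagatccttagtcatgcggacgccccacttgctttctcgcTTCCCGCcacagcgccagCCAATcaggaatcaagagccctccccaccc
Top2a has 6 CCAAT boxes and 2 cell cycle homology regions in this window, Mcm3 has 3 CCAAT boxes, and Uhrf1 has 1 CCAAT box and 1 E2F site. A CCAAT box stood in 26 of the 32 promoters found for the cell cycle genes that were called (81.25%), against 37.5% of all 8604 promoters. The homology region stood in 8 of the 32 (25%) against 10.7%, and the E2F site in 7 (21.9%) against 7.14%. Over all genes called lower, the shares were 37.6%, 11.8% and 9.33%, beside those same backgrounds. A match is no measure of binding.

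Stem cell and Notch genes fell too: 14 of 25 tested members fell (56.0%) and 0 rose, with a median log2 difference of -0.33. Over all genes 22.1% fell and 8.56% rose. The count of this list that fell was 9 to 14 under the alternatives. Olfm4, a secreted protein of crypt base stem cells, was at 431, 478 and 436 FPKM with Con-FMT and 347, 336 and 304 FPKM with A10-FMT, a log2 difference of -0.45 ± 0.11 (SE, adjusted p = 0.00684). Smoc2, a matrix protein of the same cells, was at 40.4, 40.1 and 35.4 FPKM with Con-FMT and 28.7, 28.3 and 27.6 FPKM with A10-FMT, a log2 difference of -0.44 ± 0.07 (SE, adjusted p = 0.000822). Notch1, the receptor that keeps progenitors from the secretory fate, was low at 3.79, 3.19 and 3.48 FPKM with Con-FMT and 2.04, 2.09 and 2.16 FPKM with A10-FMT, and all A10-FMT values were under all Con-FMT values, a log2 difference of -0.53 ± 0.07 (SE, adjusted p = 0.000441). The RNA-binding Msi1 and the transcription factor Sox9 fell by 0.53 and 0.49 (adjusted p = 0.00909 and 0.00288), and Slc12a2, a chloride importer of crypt cells, was at 49.6, 58.6 and 58.8 FPKM with Con-FMT and 46.7, 32.4 and 32.2 FPKM with A10-FMT and fell by 0.59 (adjusted p = 0.00953). Lgr5, the best known stem cell receptor, was at 3.87, 4.03 and 3.17 FPKM with Con-FMT and 3.69, 2.61 and 2.76 FPKM with A10-FMT. Its groups overlapped and it did not pass (adjusted p = 0.17). Lgr5 is outside the rule for named genes and was looked up afterwards. Hopx and Ly6a, genes of reserve and regenerating cells, also overlapped, with log2 differences of -0.08 and 0.06 and adjusted p of 0.592 and 0.828.

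Ion transport genes went both ways. Of 23 tested genes 8 rose (34.8%) and 4 fell (17.4%), beside 8.56% and 22.1% of all genes. The share that fell was thus below that over all genes. Those that fell were the chloride channel Cftr (-0.31 ± 0.07, adjusted p = 0.0066), the potassium channel Kcnq1 (-0.52 ± 0.08, adjusted p = 0.000651), the chloride importer Slc12a2 and the water channel Aqp1 (-0.33 ± 0.12, adjusted p = 0.0419), of which Cftr, Kcnq1 and Slc12a2 take part in fluid secretion. Kcnq1 lay between 37.8 and 39.5 FPKM with Con-FMT and between 25.9 and 27.3 FPKM with A10-FMT, with well separated groups. Those that rose included the villus genes Clca4b (0.51 ± 0.08, adjusted p = 0.000965) and Slc34a2, a phosphate carrier (0.48 ± 0.09, adjusted p = 0.00238), the bicarbonate carrier Slc4a7 (0.71 ± 0.13, adjusted p = 0.00148) and Guca2b, which encodes uroguanylin (0.64 ± 0.15, adjusted p = 0.00601). Guca2b was at 390.3, 279.9 and 381 FPKM with Con-FMT and 505, 512 and 607 FPKM with A10-FMT. Aqp1 was not called under 10 of 17 alternatives, among them without Con-FMT replicate 1 or A10-FMT replicate 1 or 2 (adjusted p up to 0.184).

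Ribosomal and mitochondrial genes gave small differences that depend on the processing. Of 78 tested cytosolic ribosomal protein genes 12 fell and 0 rose, a share of 15.4% below the background of 22.1%, and the count was 1 with trimmed-mean scaling, 24 without A10-FMT replicate 2 and 48 with GC content and length adjusted for. Of 70 oxidative phosphorylation genes 11 rose, a share of 15.7% beside 8.56% of all genes, and 0 fell. The count that rose was 32 with trimmed-mean scaling, 23 without A10-FMT replicate 1, 2 without A10-FMT replicate 2 and 2 after that adjustment. Members of both lists are short, with median transcript lengths of 1076 and 1094 bases against 3302 over all tested genes. In set 2 their medians were 0.16 and 0.00, beside -0.11 and 0.11 in set 1.

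Transcript length moved with the difference over all genes. Across the 10535 genes of known length the Spearman rho of length and log2 difference was -0.34. In the shortest quartile 14.1% of genes were called higher and 7.90% lower, and in the longest 3.65% and 40.03%. Relative to each gene's median over the 18 FMT libraries, log2 values fell with length in all 3 A10-FMT libraries (rho of -0.43 to -0.093) and did not in the Con-FMT libraries (0.0019 to 0.36). After the trend with length and GC content was taken out of each library, rho was -0.0044, and 22.1%, 23.1%, 23.7% and 25.3% of the quartiles were called lower. After this adjustment the fat uptake list had 18 genes higher, the hydrolases 12, the amino acid transporters 11, microvillus structure 18, the cell cycle 40 lower and the stem cell list 14 lower. Median lengths were 2208 bases in the fat uptake list, 3987 in the hydrolases and 3426 in the cell cycle list.

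**Figure D4:**
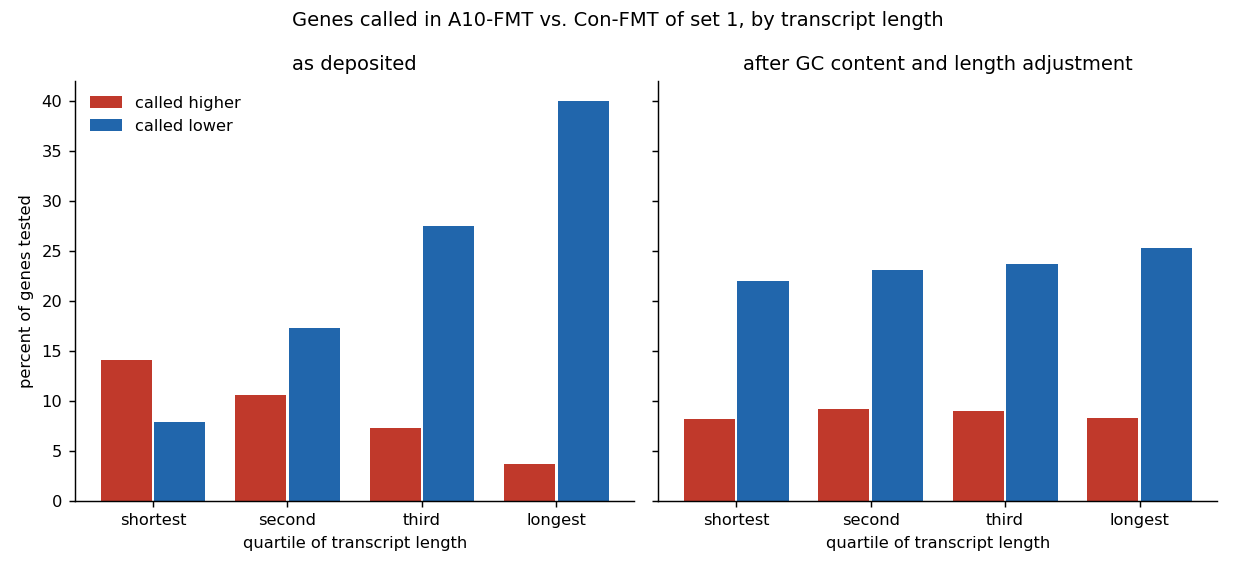
Percent of genes called higher (red) and lower (blue) with A10-FMT in set 1 in each quartile of transcript length, from the deposited values (left) and after GC content and length trends were taken out of each library (right). On the left the share called lower rises from 7.90% in the shortest to 40.03% in the longest quartile, and on the right it lies between 22.1% and 25.3%.

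Among 33 intestinal transcription factors 6 rose (18.2%) and 8 fell (24.2%), beside 8.56% and 22.1% of all genes, and without Con-FMT replicate 3 or 1 the count that fell was 4 or 5. Among those that rose, Klf4, a brake on proliferation, was at 30.6, 36.5 and 41.1 FPKM with Con-FMT and 54.5, 51.4 and 59.7 FPKM with A10-FMT, a log2 difference of 0.61 ± 0.08 (SE, adjusted p = 0.000506). Creb3l3, which drives apolipoprotein genes, was at 75.4, 78.04 and 79.4 FPKM with Con-FMT and 107, 117 and 135 FPKM with A10-FMT, a log2 difference of 0.61 ± 0.13 (SE, adjusted p = 0.00315), and Maf and Prdm1 rose by 0.39 and 0.50. Of those that fell, Klf5, a factor of proliferating crypts, was at 137, 139 and 150.3 FPKM with Con-FMT and 104, 94.2 and 102 FPKM with A10-FMT, a log2 difference of -0.50 ± 0.08 (SE, adjusted p = 0.00108). Sox4 and Nr5a2, both of the crypt, fell by 0.54 and 0.44 (adjusted p = 0.00344 and 0.00355). Hnf4a, a master factor of enterocytes, was at 268, 268 and 267 FPKM with Con-FMT and 240.1, 236 and 248 FPKM with A10-FMT. Its fall was small but the groups did not overlap (-0.15 ± 0.04, adjusted p = 0.0134). Cdx1 was at 135, 136 and 139 FPKM with Con-FMT and 128, 119 and 126 FPKM with A10-FMT without overlap, yet it did not pass (adjusted p = 0.339). Hnf4a was not called with trimmed-mean scaling or with the 6 libraries alone (adjusted p up to 0.206).

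Cell contact genes were called in both directions. Of 25 tight junction genes 1 rose and 6 fell, near the share over all genes, where 22.1% fell, and without Con-FMT replicate 3 or A10-FMT replicate 2 the count that fell was 3. The median log2 difference, -0.03, turned to 0.04 with trimmed-mean scaling, where 4 rose and 2 fell. The scaffold Tjp1 (ZO-1) was at 20.9, 20.98 and 22.1 FPKM with Con-FMT and 17.96, 14.7 and 14.7 FPKM with A10-FMT, a log2 difference of -0.42 ± 0.09 (SE, adjusted p = 0.00409), and occludin (Ocln) at 33.98, 33.97 and 35.7 FPKM with Con-FMT and 31.9, 30.2 and 30.02 FPKM with A10-FMT (-0.17 ± 0.06, adjusted p = 0.0468). Cldn4 was the member that rose, at 7.56, 11.1 and 13.5 FPKM with Con-FMT and 15.2, 15.8 and 21.3 FPKM with A10-FMT, a log2 difference of 0.67 ± 0.22 (SE, adjusted p = 0.0324). The abundant claudins Cldn3, Cldn7 and Cldn15 did not pass, with log2 differences of 0.07, 0.10 and 0.11 and adjusted p of 0.422, 0.134 and 0.467. Of 22 genes of adherens junctions and desmosomes 1 rose and 5 fell (22.7%), again near the share over all genes, and with trimmed-mean scaling 5 rose and 4 fell. E-cadherin (Cdh1) was at 259.7, 258 and 264 FPKM with Con-FMT and 228, 208 and 215 FPKM with A10-FMT, a log2 difference of -0.26 ± 0.05 (SE, adjusted p = 0.00164), while its partner Ctnnb1 was at 243, 247 and 238 FPKM with Con-FMT and 261, 236 and 230.01 FPKM with A10-FMT with overlap (adjusted p = 0.945). Of 19 genes of focal adhesion and basement membrane 3 rose and 9 fell, and without Con-FMT replicate 1 or 3 or A10-FMT replicate 3 the count that fell was 5. The collagen receptor subunit Itga2 was at 5.39, 6.19 and 6.50 FPKM with Con-FMT and 4.38, 3.13 and 2.95 FPKM with A10-FMT, a log2 difference of -0.66 ± 0.13 (SE, adjusted p = 0.00302), Itga6 fell by 0.36 (adjusted p = 0.00164), and the basement membrane gene Hspg2 by 0.47 (adjusted p = 0.00744). Ocln was not called under 14 of 17 alternatives, among them without Con-FMT replicate 1, 2 or 3 or A10-FMT replicate 2 or 3 (adjusted p up to 0.272). Cldn4 was not called under 6 of 17 alternatives, among them without Con-FMT replicate 1 or 2 or A10-FMT replicate 3 (adjusted p up to 0.152).

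A list of genes whose proteins were probed in the study, with several claudins because the antibody names no member of that family, had 14 tested members, of which 2 rose and 4 fell. These were 14.3% and 28.6% of the list, beside 8.56% and 22.1% of all genes. Cldn4 and Vil1 rose, and Ocln, Cdh1, Tjp1 and Sox4 fell. The other 8 did not pass, among them the survival gene Bcl2l1, at 17.8, 18.96 and 19.7 FPKM with Con-FMT and 19.9, 19.8 and 20.3 FPKM with A10-FMT (adjusted p = 0.32). With trimmed-mean scaling the median of these 14 genes changed sign. The call of Ocln was lost under 14 of 17 alternatives and that of Cldn4 under 6 of 17.

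Of 21 tested goblet cell genes 4 rose and 2 fell, beside 8.56% and 22.1% of all genes, and this list's count moved with single libraries. The count higher was 1 without Con-FMT replicate 1 or A10-FMT replicate 3, 2 without Con-FMT replicate 2 or A10-FMT replicate 2, and 7 without Con-FMT replicate 3. The gel-forming mucin Muc2 was at 251, 260.5 and 331 FPKM with Con-FMT and 351, 386 and 444 FPKM with A10-FMT, a log2 difference of 0.49 ± 0.10 (SE, adjusted p = 0.00293), and the membrane mucin Muc13 rose by 0.24 (adjusted p = 0.0217). Tff3, the trefoil peptide of goblet cells, was at 1885, 1949.8 and 2228 FPKM with Con-FMT and 2087, 2522 and 2475 FPKM with A10-FMT, overlapping (adjusted p = 0.0885). Among enteroendocrine genes 1 of 17 rose and 1 fell, no more than the shares over all genes, and 0 rose without Con-FMT replicate 1 or A10-FMT replicate 2 or 3: secretin (Sct) was at 31.7, 37.6 and 41.3 FPKM with Con-FMT and 47.2, 59.5 and 55.1 FPKM with A10-FMT, a log2 difference of 0.54 ± 0.15 (SE, adjusted p = 0.0161), and the endocrine factor Insm1 fell from a low level (-0.20 ± 0.07, adjusted p = 0.0416). Muc13 was not called under 6 of 17 alternatives, among them without Con-FMT replicate 1 or A10-FMT replicate 2 or 3 (adjusted p up to 0.126). Sct was not called without Con-FMT replicate 1 or A10-FMT replicate 2 or 3 (adjusted p up to 0.0748). Insm1 was not called under 12 of 16 alternatives, among them without Con-FMT replicate 1 or 3 or A10-FMT replicate 1, 2 or 3 (adjusted p up to 0.192).

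In the Paneth cell list 1 of 21 tested members rose (4.76%) and 1 fell (4.76%), beside 8.56% and 22.1% of all genes. The member that rose, Guca2b, is also a villus gene. The abundant products overlapped between groups: lysozyme Lyz1 was at 4009, 4697 and 3531 FPKM with Con-FMT and 3657, 4305 and 2703 FPKM with A10-FMT and the alpha-defensin Defa24 at 6788, 7744 and 5714 FPKM with Con-FMT and 5743, 7610.1 and 4745 FPKM with A10-FMT, with adjusted p of 0.532 and 0.471. Pnliprp2, a lipase, was at 22.02, 26.00 and 22.3 FPKM with Con-FMT and 14.8, 11.9 and 11.9 FPKM with A10-FMT and fell (-0.82 ± 0.26, adjusted p = 0.0269). A few alpha-defensin genes, named here after their values were seen, were listed at 0 in every A10-FMT library. Defa42 was at 3.88, 773 and 439.7 FPKM with Con-FMT and 0, 0 and 0 FPKM with A10-FMT, and Defa21 at 1.94, 409.8 and 256 FPKM with Con-FMT and 0, 0 and 0 FPKM with A10-FMT. Con-FMT replicate 1 was near 0 as well, and neither passed the test (adjusted p = 0.0964 and 0.128). Alpha-defensin genes are near-identical copies whose reads can be split, and in set 2 Defa42 was at 0.68, 68.3 and 881 FPKM with Con-FMT and 2872, 205 and 4.54 FPKM with A10-FMT, with no order by group. Pnliprp2 was not called under 7 of 17 alternatives, among them without Con-FMT replicate 1 or 2 or A10-FMT replicate 2 or 3 (adjusted p up to 0.0791).

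Of 22 tested defence genes that respond to microbes 3 rose (13.6%) and 0 fell, beside 8.56% and 22.1% of all genes. Without Con-FMT replicate 1 or A10-FMT replicate 3, 1 rose. Reg1, a secreted lectin of the Reg family, was at 100.03, 142 and 165 FPKM with Con-FMT and 398, 496 and 235 FPKM with A10-FMT, a log2 difference of 1.43 ± 0.33 (SE, adjusted p = 0.00617). Reg1 is also made by pancreas, whose list summed to 109 to 172 FPKM with Con-FMT and 245 to 510 FPKM with A10-FMT, nearly all of it Reg1. Enzymes of pancreatic acinar cells, chosen for mention after their values were seen, were listed at 0 in every Con-FMT library and just above 0 in every A10-FMT library. Try4 was at 0.13, 0.78 and 0.05 FPKM with A10-FMT, Pnlip at 0.07, 0.43 and 0.03 FPKM and Amy2a5 at 0.20, 0.51 and 0.06 FPKM, and their part in the rise of Reg1 was not tested. The abundant antibacterial lectins Reg3b and Reg3g were at 7850.1, 11009 and 7549.6 FPKM with Con-FMT and 11799, 13519.9 and 10636 FPKM with A10-FMT and at 7104, 10048 and 6876 FPKM with Con-FMT and 9401, 11172 and 9028 FPKM with A10-FMT. Both overlapped between groups (adjusted p = 0.158 and 0.27). Sprr2a3, of a family of close copies, rose by 0.97 ± 0.28 (adjusted p = 0.0175). Sprr2a3 was not called under 4 of 17 alternatives, among them without Con-FMT replicate 1 or 2 or A10-FMT replicate 3 (adjusted p up to 0.0757).

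Interferon-stimulated antiviral genes went both ways, 4 of 46 up and 8 down, beside 8.56% and 22.1% of all genes, with a median log2 difference of -0.004 whose sign changed under 6 alternatives. The 8 lower became 2 without Con-FMT replicate 1, and 3 without A10-FMT replicate 3 or with trimmed-mean scaling. Oasl1 and Zbp1, an antiviral gene of the oligoadenylate synthetase family and a sensor of left-handed nucleic acid, rose by 0.39 and 0.34 (adjusted p = 0.0241 and 0.0075). Xaf1, a proapoptotic interferon target, was at 51.9, 45.02 and 44.3 FPKM with Con-FMT and 28.1, 30.4 and 26.6 FPKM with A10-FMT, a log2 difference of -0.71 ± 0.20 (SE, adjusted p = 0.0147), and Ifit3 at 57.1, 53.3 and 52.9 FPKM with Con-FMT and 35.4, 47.3 and 33.9 FPKM with A10-FMT (-0.49 ± 0.17, adjusted p = 0.0439). The regulator Irf7 was at 241, 250.01 and 229 FPKM with Con-FMT and 237, 277 and 266 FPKM with A10-FMT and overlapped (adjusted p = 0.478). Of 27 genes of MHC class I and peptide loading 4 rose and 0 fell, and 1 rose without Con-FMT replicate 2 or A10-FMT replicate 2 or 3. In this list B2m, the light chain, was at 1351, 1243 and 1471 FPKM with Con-FMT and 1511, 1513 and 1651 FPKM with A10-FMT (0.20 ± 0.07, adjusted p = 0.0456). Class I heavy chain genes are close copies and are not described singly. Xaf1 was not called without Con-FMT replicate 1 or A10-FMT replicate 3 (adjusted p up to 0.0574). Ifit3 was not called under 11 of 17 alternatives, among them without Con-FMT replicate 1, 2 or 3 or A10-FMT replicate 1 or 3 (adjusted p up to 0.15). Oasl1 was not called under 6 of 17 alternatives, among them without Con-FMT replicate 2 or 3 or A10-FMT replicate 2 or 3 (adjusted p up to 0.0818). B2m was not called under 12 of 17 alternatives, among them without Con-FMT replicate 1 or 2 or A10-FMT replicate 1, 2 or 3 (adjusted p up to 0.482).

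Set 2 holds 3 other Con-FMT and 3 other A10-FMT libraries, which share none with set 1, and there the difference mostly had the other sign. What the set numbers stand for is not given in the sources used here. In set 2, 194 entries were called (1.71%), 43 higher (0.379%) and 151 lower (1.33%), and the groups did not overlap in 17.0% of entries upward and 8.32% downward. With array quality weights 519 were higher and 486 lower, and with the replicate number as a block 2 and 18. Of the 971 genes called higher in set 1, 891 (91.8%) were lower in value in set 2, against 34.9% of all tested genes, and 123 of them were called lower there. Of the 2503 called lower in set 1, 2348 (93.8%) were higher in value in set 2, against 65.1% of all, and 33 were called higher. The count called higher in both sets was 0, and 1 gene was called lower in both. Across genes, which are not independent replicates, Pearson's r of the 2 differences was -0.47 and Spearman's rho -0.56. The difference of set 1 minus that of set 2, tested as an interaction, was called for 3960 entries (34.9%), 1100 higher (9.69%) and 2860 lower (25.2%). It was called for 3063 of the 3474 genes called in set 1. Since it contains the set 1 difference, genes chosen by their call in set 1 were the more likely to pass.

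**Figure D5:**
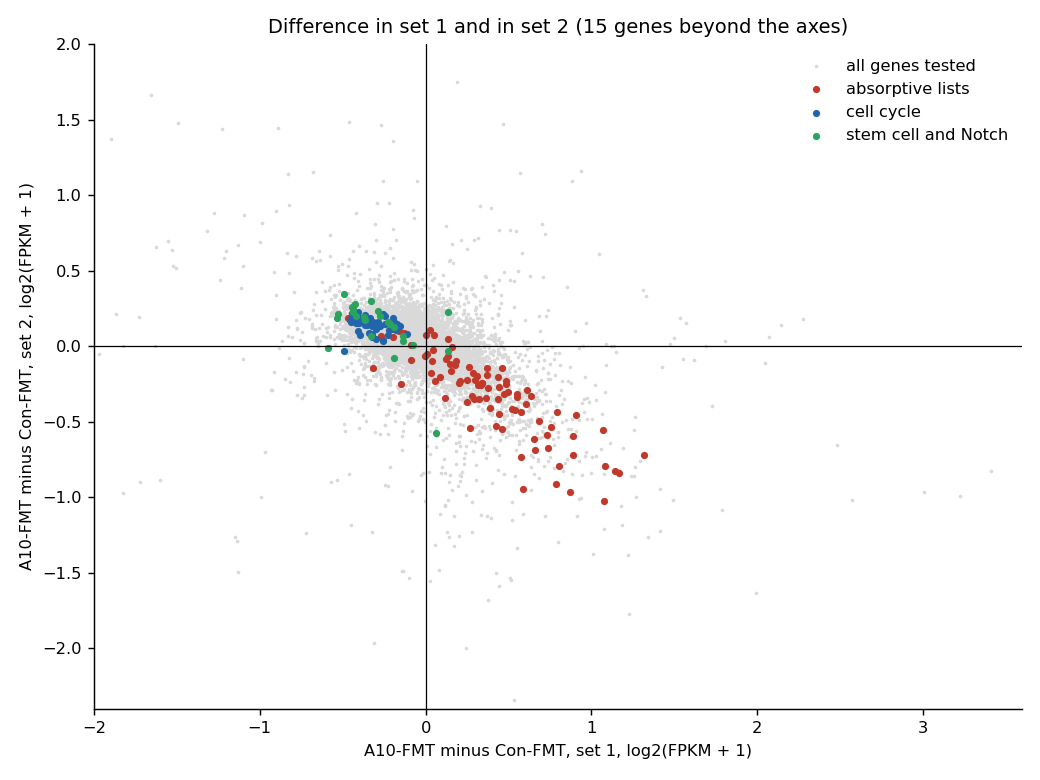
Difference between A10-FMT and Con-FMT in set 1 (horizontal axis) and in set 2 (vertical axis), both in log2(FPKM + 1), for all genes tested (grey), absorptive lists (red: hydrolases, fat uptake, amino acid transport, microvillus), cell cycle (blue) and stem cell and Notch genes (green). Most red points lie to the lower right and most blue and green points to the upper left, as the opposite signs of the lists' medians in the 2 sets show. The 15 genes beyond the axes are not drawn.

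The hydrolase, fat uptake, amino acid transporter and cell cycle lists had medians of the opposite sign in set 2. The interferon-stimulated list had a median near 0 in set 1, at -0.004, with 23 of 46 members higher in value. In set 2 its median was -0.30, with 1 of 46 higher in value and 15 called lower. The hydrolases had a median log2 difference of 0.53 in set 1 and -0.53 in set 2, with 6 of 16 called lower there, fat uptake 0.44 and -0.33 with 9 of 27 lower, and amino acid transporters 0.25 and -0.23 with 6 of 21 lower. The cell cycle list went from -0.33 to 0.15 with 0 of 48 called in set 2. In the test of the difference, which contains the set 1 difference, 43 of 48 were lower in set 1. Fabp2 in set 2 was at 1321, 1584 and 1647 FPKM with Con-FMT and 979, 809 and 835 FPKM with A10-FMT, a log2 difference of -0.79 (adjusted p = 0.0122), and the 2 differences were 1.88 apart (adjusted p = 3.84e-05). Slc6a19 was at 60.9, 84.8 and 61.1 FPKM with Con-FMT and 34.3, 40.8 and 37.98 FPKM with A10-FMT in set 2, a difference of -0.84 (adjusted p = 0.0164). In both genes the Con-FMT libraries of set 2 lay above and the A10-FMT libraries of set 2 below the Con-FMT libraries of set 1. S100g was at 122, 181 and 61.4 FPKM with Con-FMT and 72.6, 58.9 and 39.5 FPKM with A10-FMT in set 2 and was not called there (adjusted p = 0.229), and the 2 differences were 4.21 apart (adjusted p = 0.000306). Top2a in set 2 was at 70.9, 60.8 and 60.8 FPKM with Con-FMT and 71.2, 75.2 and 68.6 FPKM with A10-FMT (log2 difference 0.16, adjusted p = 0.198). The values of Gsta1 overlapped in set 2. It was at 22.2, 19.99 and 21.2 FPKM with Con-FMT and 26.7, 18.7 and 17.3 FPKM with A10-FMT, a log2 difference of -0.04 (adjusted p = 0.933).

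A100-FMT, from donors dosed with AOS at 100 mg/kg, is given beside A10-FMT with its own comparison, and both comparisons share the same Con-FMT libraries. In set 1, 102 entries were called in A100-FMT against Con-FMT (0.899%), 69 higher (0.608%) and 33 lower (0.291%). Fabp2 was at 1687, 1958 and 1564 FPKM with A100-FMT, a log2 difference of 0.47 (adjusted p = 0.0605) beside 1.08 with A10-FMT. S100g was at 87.97, 42.4 and 91.5 FPKM, a difference of 1.38 (adjusted p = 0.122) beside 3.23. Top2a was at 59.5, 57.4 and 62.02 FPKM, a difference of -0.16 (adjusted p = 0.225) beside -0.45. The Paneth gene Lyz1 was called lower with A100-FMT, at 2163, 1610.4 and 1391 FPKM, a difference of -1.26 (adjusted p = 0.0273) beside -0.21 with A10-FMT, where it was not called. Muc2 was at 395, 427 and 459.6 FPKM and was called higher with both, by 0.61 and 0.49.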

How the data were processed

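Total RNA of small intestine was sequenced by the authors on an Illumina HiSeq 2500, and the deposited table gives FPKM per gene for each library, computed by the authors. Their methods speak of RPKM and the column headers of FPKM, the build is mm10 per the labels, and the aligner and counter are not given in the sources used here. The table holds 24 columns, of which 1 could not be tied to a sample and was not used. Since it holds no counts, depth is unknown and no counting interval can be given. Values below 0.01 FPKM are 0.

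Values were taken as log2(FPKM + 1). Of 19215 entries, those whose average across the 18 FMT libraries reached 1 FPKM were kept, and limma 3.58.1 in R 4.3.3 (lmFit, then eBayes with trend) was fitted with 1 mean for each of 6 groups of 3 libraries. Contrasts were A10-FMT minus Con-FMT in set 1 and in set 2, their difference, and A100-FMT minus Con-FMT in set 1. P-values are two-sided and adjusted by Benjamini-Hochberg over all tested entries, with a threshold of 0.05. An exact permutation of 3 against 3 libraries cannot go below p = 0.1, so none is given. The scripts were tested on simulated data. Tables and figures were made with Python 3.11.15, pandas 2.3.3 and matplotlib 3.10.9. Symbols were matched for 17736 of 17842 NCBI Gene numbers, and 1373 entries carry only an identifier of the sequencing provider.

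The gene lists, 59 in all, were chosen with earlier results of these data known. Genes are named by a rule: the called genes at either end of the ranking by log2 change, 12 at each end, the 6 per direction with the lowest adjusted p, up to 6 called members per list and direction, the 3 most abundant members per list, and genes whose proteins the study measured (for claudins, any of the family, since the antibody names no member). Of the 349 genes so named, the text prints a part. Transcript lengths and GC content come from GENCODE on GRCm38 and promoters from RefSeq on GRCm38.p6. Alternatives changed the pseudocount, the filter, the scaling (quantile normalization, trimmed means), the libraries in the fit, array weights, a replicate block, an adjustment for GC content and length, and left out each of the 6 libraries in turn. Some items are not reported here.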

Additional observations from a re-analysis of the deposited data

Results flagged for a closer look

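The difference between A10-FMT and Con-FMT was tested against the same difference in set 2, as an interaction in limma with Benjamini-Hochberg adjustment, and differed for 3960 of the 11349 entries. Of the 12 named genes with the largest rise and the 12 with the largest fall in set 1, the following passed this test. They are given as the log2 difference of set 1 minus that of set 2.

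Absorptive and villus genes lay on the positive side. S100g was at 4.21, Akp3 at 3.59, and Tmigd1 at 2.04. Of other genes that rose in set 1, Aldh4a1, which takes part in proline breakdown, was at 2.64, Aqp3 at 2.60, Areg at 2.36, Otop3 at 2.12, Ido1 at 2.06 and Reg1 at 1.57. On the negative side stood Haspin at -2.02, Gm21992 at -1.69, Hsd3b3 at -1.67, Gm43305 at -1.63, Pnliprp2 at -1.31, Ceacam10 at -1.16, Lrrc31 at -0.91, AU020206 at -0.90, Zbed6 at -0.89 and Gm4070 at -0.84. Since these genes were chosen by their difference in set 1, the sign is largely set by that choice. In set 1 Gm21992 was not called without Con-FMT replicate 3 or A10-FMT replicate 3 (limma adjusted p up to 0.0537), and Ceacam10 without Con-FMT replicate 1 or A10-FMT replicate 2 or 3 (up to 0.0677). Gm43305 was not called under 8 of 16 alternatives, among them without Con-FMT replicate 1 or 3 or A10-FMT replicate 1 or 2 and with quantile or trimmed-mean scaling (up to 0.136), and Gm4070 in the fit of all 23 libraries (0.0548).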

How the results depend on the processing

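The direction of the 249 named genes that were called in set 1 held under every alternative run, and 112 of them stayed called throughout; 809 of the alternative values of named genes fell short of the threshold and 69 newly passed it. Krt19, not called, turned to -0.26 with quantile normalization. The 3474 calls of set 1 became 1790 (581 higher, 1209 lower) with the 6 libraries alone and 1891 (590 and 1301) with all 23. The count lower was 1478 with quantile normalization, and trimmed-mean scaling gave 1537 higher and 1363 lower. Leaving out 1 library gave 2313 to 3176 calls, 650 to 913 higher and 1651 to 2263 lower; without Con-FMT replicate 1 the count was 2313, with 1651 lower, and without A10-FMT replicate 3 the count higher was 650. The 194 calls of set 2 became 58 without the filter, 43 with all 23 libraries, 1005 with array weights and 20 with the replicate block. The count for the difference between the sets, 3960, became 2354 with all 23 libraries. By ratio of means the 64 genes higher and 47 lower became 264 and 117 at a ratio of 1.5, and 102 higher with 0.1 FPKM added. Besides the calls named with their genes, those of Mme, Heph, Cftr, Clca4b, Atp2b1 and Maf were lost with all 23 libraries and those of Xpnpep2, Txnip and Ada with the 6 alone. The causes of these changes were not tested. As a block the replicate number gave 3296 calls in set 1; deviations of libraries with the same number correlated at 0.046, -0.0098 and 0.11, so the numbers were not taken as pairs. Depth is unknown, so its limit on low genes cannot be stated.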

Other observations

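Stress, growth and fat-burning genes are given by their counts in set 1, with members whose call held under every alternative run. Over all genes 8.56% were higher and 22.1% lower, and the 3 of 33 higher for the unfolded protein response and 3 of 12 lower for heat shock lie near these shares. Of 17 tested immediate early genes 4 rose and 1 fell. Myc, a transcription factor of proliferation, fell by 0.37 on the log2 scale (limma adjusted p = 0.00431) while the small bZIP factor Maff rose by 0.50 (adjusted p = 0.00243). Of 22 tested p53 target genes, the gene of p53 included, 3 rose and 2 fell. Trp53 fell by 0.33 (adjusted p = 0.00201), and Fas, the death receptor, rose by 0.38 (adjusted p = 0.000822). Of 33 genes of the unfolded protein response 3 rose and 3 fell, with the endoplasmic reticulum sensor Ern1 lower by a log2 difference of -0.47 (adjusted p = 0.00205). Of 15 clock genes 1 rose and 2 fell, among them the repressor Bhlhe40 at -0.50 (adjusted p = 0.00243). Of 22 genes of fatty acid oxidation 5 rose and 3 fell. Slc25a20, which carries acylcarnitine into mitochondria, rose by 0.37 (adjusted p = 0.00175). Of 13 genes of fatty acid synthesis 1 rose and 3 fell, of 25 sterol synthesis genes 1 rose and 0 fell, and of 12 heat shock genes 0 rose and 3 fell. Cidec, a lipid droplet protein and the 1 tested member of the adipocyte list, rose by 0.88 (adjusted p = 0.000877), while Adipoq, the defining marker of that list, was at 0.

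A few genes outside the comparisons above stood out after their values were seen, and are given as values only. Eif3i, a subunit of translation initiation factor eIF3, was at 3.18, 48.1 and 5.67 FPKM with Con-FMT and 1.67, 3.56 and 1.31 FPKM with A10-FMT of set 1, and at 1.60, 4.81 and 73.96 FPKM with Con-FMT and 73.2, 7.73 and 1.72 FPKM with A10-FMT of set 2. Hdac1, a histone deacetylase, was at 0.17, 20.9 and 1.16 FPKM with Con-FMT and 0.05, 0.27 and 0.14 FPKM with A10-FMT of set 1, and at 0.17, 1.58 and 30.4 FPKM with Con-FMT and 31.6, 2.67 and 0.19 FPKM with A10-FMT of set 2. Each gene was high in Con-FMT replicate 2 of set 1, Con-FMT replicate 3 of set 2 and A10-FMT replicate 1 of set 2, and low in most of the others. The alpha-defensin gene Defa42 was, of the Con-FMT and A10-FMT libraries, also highest in these 3.

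In set 1 hemoglobin RNA was low and highest in A10-FMT replicate 3. Hba-a1 was at 0.60, 1.91 and 1.65 FPKM with Con-FMT and 1.49, 3.72 and 12.5 FPKM with A10-FMT of set 1, and Hbb-b1 at 0.22, 0.08 and 0.60 FPKM with Con-FMT and 0.62, 1.41 and 6.57 FPKM with A10-FMT. The erythroid list summed to 3.73 to 8.12 FPKM with A100-FMT of set 1. In set 2 it summed to 48.3 FPKM in Con-FMT replicate 1, 6.68 and 6.79 FPKM in the other Con-FMT libraries, 1.73 to 5.78 FPKM with A10-FMT and 6.18 to 13.5 FPKM with A100-FMT.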
